A study of Mus musculus with 8 samples.

Results

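The genes described here are a module of 34 p53 regulators and target genes taken by name. Of the 34 names, 33 have an entry among the 36528 gene identifiers of the files, and 32 of those held enough reads to be tested. Tap63 names an isoform of the p53 relative Trp63 and has no entry, so it has no value. Tspan11, a tetraspanin of the cell membrane, had 4 to 10 counts per library and was not tested.

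RNA was measured by sequencing of polyadenylated transcripts in primary mesothelial cells from the mouse omentum, the fold of fatty tissue in the abdominal cavity. Mesothelial cells are the flat cells that line the body cavities. The study compared 2 genotypes, wild-type cells (WT, 4 libraries) and cells labelled as a knockout of the deubiquitinase BAP1 (BAP1 KO, 4 libraries). For the strain, age and sex of the animals, the way the knockout was made, any culture treatment and any pooling of animals, the sources used here give no details. It is also not stated if libraries of 1 genotype are from different animals or cultures. The p-values therefore measure only how these libraries vary, and that spread may be technical. Replicate numbers follow the order of accession and pair nothing.

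p53, encoded by Trp53, is a transcription factor that is stabilised by DNA damage and other stress and then switches on genes that halt the cell cycle, repair DNA or start apoptosis. Its amount is set mainly at the level of the protein: Mdm2 marks it with ubiquitin for destruction, and Mdm2 is itself a p53 target, so the pair form a feedback loop. Many p53 targets keep a basal level that depends on p53 in cells under no applied stress. BAP1 is a nuclear enzyme that removes ubiquitin from histones and other proteins, and its loss is common in mesothelioma, the tumour of these cells.

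p53 binds DNA as a tetramer, and each pair of its subunits contacts a half-site of 10 bases. A full site is 2 half-sites in a row. The letters of the half-site read the same on both strands, so 1 search covers both. Promoter windows of 300 bases, from 250 before to 50 after a transcript start, were taken from RefSeq on GRCm38.p6. A gene has a window for each start the table lists, and 23 of the 33 members with an entry had 31 windows in all (1.35 per gene, against 1.22 over all genes of the table and 1.27 over tested genes). Ccnd1, Ddb2, Perp, Ptp4a3, Pvt1, Rrm2b, Trp53cor1, Trp53inp1, Xpc and Zmat3 had none. A p53 half-site without mismatch lay in a window of 10 of the 23 members (43.5%), compared with 9.55% of the 27025 genes of the table and 8.62% of the 12330 tested genes in it. Counted by window, the share was 35.5% for the members and 8.36% over the table. A full site with at most 3 mismatches and the central C and G of each half-site intact lay in a window of 6 of the 23 (26.1%), compared with 1.63% of all genes of the table. The Sesn1 and Polk matches belong to starts that lie 76865 and 23392 bases inside the gene, and the other matched starts lie at most 255 bases inside it. These matches are letters in a window and describe no binding, and many known p53 sites lie in introns outside such windows.

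The 250 bases before a listed start are shown for the 3 members of the core circuit whose window held a half-site and for Ccng1, whose window, like that of Gtse1, held a full site with 1 mismatch. Each reads 5′ to 3′ along the gene's strand, with the half-site in capitals. The starts used for Trp53 and Ccng1 lie 11 and 23 bases inside the outermost start of the gene.
Trp53, chr11:69580109-69580358, plus strand: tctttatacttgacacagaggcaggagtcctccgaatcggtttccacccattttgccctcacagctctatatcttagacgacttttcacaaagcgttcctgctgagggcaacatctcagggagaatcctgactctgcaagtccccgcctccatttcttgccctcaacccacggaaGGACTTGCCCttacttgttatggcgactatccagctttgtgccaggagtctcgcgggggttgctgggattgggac
Mdm2, chr10:117710759-117711008, minus strand: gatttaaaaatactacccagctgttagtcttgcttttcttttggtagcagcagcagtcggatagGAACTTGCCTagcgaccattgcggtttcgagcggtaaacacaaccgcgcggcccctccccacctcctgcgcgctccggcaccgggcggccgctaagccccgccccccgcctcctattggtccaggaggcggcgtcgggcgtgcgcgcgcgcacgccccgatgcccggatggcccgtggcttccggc
Ppm1d, chr11:85311004-85311253, plus strand: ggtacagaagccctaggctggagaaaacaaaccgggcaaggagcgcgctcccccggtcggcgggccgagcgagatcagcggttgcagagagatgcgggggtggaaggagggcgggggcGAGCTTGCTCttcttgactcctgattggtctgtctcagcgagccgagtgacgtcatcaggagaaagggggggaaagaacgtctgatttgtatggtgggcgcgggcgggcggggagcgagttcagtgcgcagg
Ccng1, chr11:40755287-40755536, minus strand: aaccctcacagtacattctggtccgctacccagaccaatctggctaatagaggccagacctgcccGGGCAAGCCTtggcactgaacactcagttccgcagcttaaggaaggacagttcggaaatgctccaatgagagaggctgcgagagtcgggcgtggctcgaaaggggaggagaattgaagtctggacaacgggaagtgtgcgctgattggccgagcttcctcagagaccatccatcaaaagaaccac

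For the other 6 members with a half-site, the half-site is shown in capitals with 10 bases on either side.
Aen, chr7:78895927-78895956, plus strand: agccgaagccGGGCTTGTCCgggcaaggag
Sesn1, chr10:41887256-41887285, plus strand: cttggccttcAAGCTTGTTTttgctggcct
Gtse1, chr15:85859945-85859974, plus strand: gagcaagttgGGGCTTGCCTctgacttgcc
Ei24, chr9:36797325-36797354, minus strand: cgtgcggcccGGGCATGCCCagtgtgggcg
Polk, chr13:96519399-96519428, minus strand: catgtagcttGAACTAGCCTcaaacttatt
Tspan11, chr6:127887410-127887439, plus strand: gagaagtgggAGGCTTGTCCctacatccca

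The 6 full sites follow as 20 bases each, with letters that match in capitals and mismatched letters in lower case. Ccng1 and Gtse1 each had 1 mismatch, and the other 4 each had 3.
Ccng1, chr11:40755462-40755481, minus strand: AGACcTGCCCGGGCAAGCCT
Gtse1, chr15:85859945-85859964, plus strand: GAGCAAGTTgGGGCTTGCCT
Trp53, chr11:69580284-69580303, plus strand: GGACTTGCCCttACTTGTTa
Aen, chr7:78895937-78895956, plus strand: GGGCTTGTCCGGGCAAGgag
Sesn1, chr10:41887266-41887285, plus strand: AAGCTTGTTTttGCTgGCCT
Tigar, chr6:127109746-127109765, minus strand: GGtCTAGCTCtGGCAAGaCT

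The knocked-out gene was read first. Bap1 (Entrez 104416, GRCm38.p6 chr14:31251352-31259930) stood at 63.1, 62.6, 62.9 and 64.2 CPM in WT replicates 1 to 4, and at 54.0, 53.1, 52.0 and 53.7 CPM in BAP1 KO replicates 1 to 4. CPM are counts per M (mega) reads assigned to genes, with the library total adjusted by TMM factors. The groups did not overlap, and the Bap1 transcript fell by 0.25 ± 0.03 (SE) on the log2 scale, to 84.2% of WT (edgeR quasi-likelihood test, Benjamini-Hochberg adjusted p = 2.1e-09). Reads over the whole gene were counted, so a deleted part of the gene cannot be seen in this value. Of all tested genes, 32.1% were lower and 53.8% had no overlap in either direction, so a fall of this size cannot check the labels.

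All 8 libraries were deep, with 67.1 to 84.9 M counts. Of the 16929 genes tested, 61.1% passed the test at an adjusted p below 0.05, 29.0% higher and 32.1% lower in BAP1 KO. A median gene moved by 0.184 on the log2 scale in either direction. Against a change of 1.5-fold, 8.18% passed, 2.19% higher and 5.99% lower, and for 53.8% of genes the libraries of the genotypes did not overlap. Mesothelial markers were present, none of the 15 at 0: 7 were higher and 6 lower in BAP1 KO, and their summed level was 1534 to 1560 CPM in WT and 1695 to 1708 CPM in BAP1 KO. Within that sum the means of Ildr2 and Wt1 went from 245.7 to 335.5 and from 121.2 to 166.0 CPM. Past 1.5-fold, 2 were higher (Cldn15 and Muc16) and 3 lower. The 3 were Msln, Krt8 and Krt18, at 43.9%, 33.8% and 38.3% of WT, so the higher sum does not describe all 15 markers. Macrophage markers were also abundant, with 5 of 12 higher, 6 lower, none at 0, and a sum of 15120 to 15450 CPM in WT against 17450 to 18020 CPM in BAP1 KO. Lyz2 alone, whose mean went from 8388 to 11030 CPM, carried that rise: the other 11 macrophage markers summed to 6893 to 7079 CPM in WT and 6742 to 6886 CPM in BAP1 KO. The 6 fibroblast markers summed to 1338 to 1383 CPM in WT and 1063 to 1106 CPM in BAP1 KO, with 5 lower and none at 0. Smooth muscle markers summed to 9110 to 9558 CPM in WT and 9498 to 9612 CPM in BAP1 KO, with 3 of 5 higher and 1 lower. The 7 adipocyte markers were low in sum, at 84.6 to 86.7 CPM in WT and 87.6 to 90.6 CPM in BAP1 KO, with 5 higher, 1 lower and Lep at 0. The 1 lower was Fabp4, the most abundant of the 7, whose mean went from 55.3 to 42.3 CPM. The 5 higher stood at 139.6% (Adipoq) to 296.6% (Cidec) of WT, and Cidec reached at most 0.676 CPM. The 6 endothelial markers summed to 29.0 to 29.9 CPM in WT and 18.5 to 19.6 CPM in BAP1 KO, with 4 lower, none higher and none at 0. The 6 lymphocyte markers summed to 4.99 to 5.10 CPM in WT and 3.03 to 3.40 CPM in BAP1 KO, with 1 higher, 1 lower and none at 0. The 1 lower was Cd4, whose mean went from 3.268 to 1.135 CPM. The 1 higher was Cd79a, from 0.588 to 0.915 CPM, so the lower sum does not describe all 6 markers. The part of these cell types in the results below was not tested. In bulk RNA, fewer cells of a type and less RNA per cell cannot be told apart.

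The p53 module changed in both directions and by small amounts. Of its 32 tested members, 12 were higher in BAP1 KO, 8 were lower and 12 did not pass the test, so 62.5% were called, close to the 61.1% of all tested genes. Their log2 fold changes (BAP1 KO minus WT) ran from -0.40 for Plk2 to 0.67 for Ptp4a3, with a median of 0.036 against -0.005 for all tested genes. The median size of a change, whatever its sign, was 0.138, below the 0.184 of all tested genes. Of the 20 called members, 19 had a change smaller than 1.5-fold, and for 11 of those higher and all 8 of those lower the libraries of the genotypes did not overlap. Over all tested genes, called or not, the share without overlap was 53.8%. When trends with GC content and transcript length were removed within each library, an alternative chosen after seeing the data, the split became 18 higher and 5 lower, against 40.9% higher and 26.8% lower of all tested genes. A robust version of the same removal gave 18 higher and 6 lower, against 33.7% and 31.1%.

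**Figure D1:**
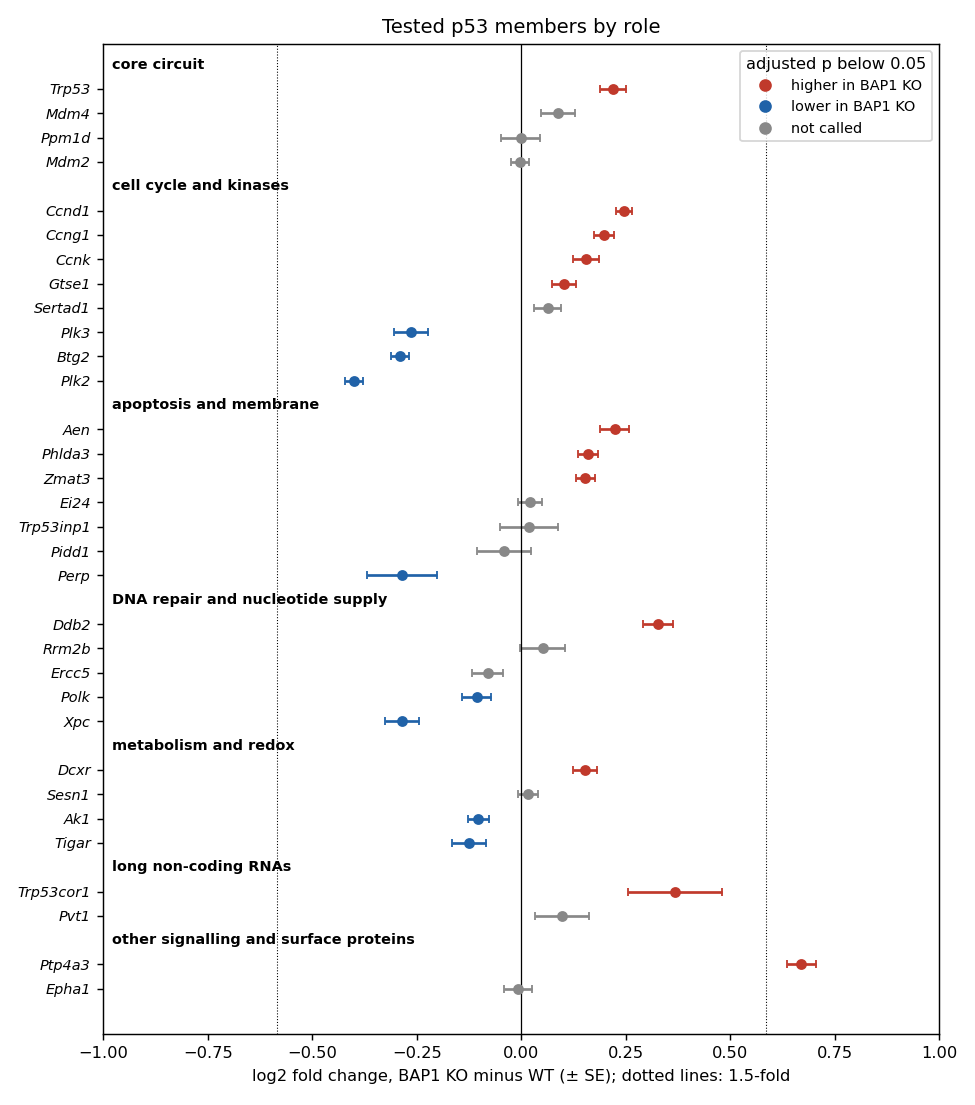
Log2 fold change (BAP1 KO minus WT) with its standard error for the 32 tested members, grouped by role, with dotted lines at 1.5-fold. Red and blue points passed the test at an adjusted p below 0.05, and Ptp4a3 is the single member beyond a dotted line.

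Within the core circuit, Trp53 rose and the regulators of its protein did not pass the test. Trp53 itself (Entrez 22059, chr11:69580348-69591873) stood at 87.1, 96.6, 99.7 and 98.9 CPM in the WT libraries and at 112.6, 111.9, 109 and 111 CPM in the BAP1 KO libraries. The 4 BAP1 KO libraries lay close together and above every WT library, of which WT replicate 1 was the lowest. The difference was 0.22 ± 0.03 (SE) on the log2 scale, or 116% of WT (adjusted p = 5.9e-07, n = 4 per genotype, edgeR).

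Mdm2, the main ubiquitin ligase of p53 (Entrez 17246, chr10:117688875-117710758), stood at 198.8, 204, 198.9 and 199.9 CPM in WT and at 198.4, 201, 203 and 197 CPM in BAP1 KO. The groups overlapped almost fully, with a log2 difference of -0.003 ± 0.021 (SE) and an adjusted p of 0.92. After removal of the GC and length trends the sign turned and Mdm2 passed the test, at 0.145, and at 0.069 with the robust version. Mdm4, which binds p53 and blocks its activity, stood at 22.6, 23.6, 23.7 and 23.4 CPM in WT and at 22.5, 25.7, 26.1 and 24.6 CPM in BAP1 KO. In BAP1 KO replicate 1 it was as low as in WT, and the other 3 BAP1 KO libraries lay above all of WT. Its log2 difference of 0.09 ± 0.04 missed the threshold (adjusted p = 0.067), and without BAP1 KO replicate 1 it passed (0.128, adjusted p = 0.0062). Mdm4 also passed with RLE factors (adjusted p = 0.041) and after removal of the GC and length trends, at 0.209, or 0.14 with the robust version. Ppm1d, the phosphatase that removes activating phosphates from p53 and its kinases, stood at 13.7, 14.7, 14.0 and 13.6 CPM in WT and at 14.7, 14.2, 13.2 and 14.0 CPM in BAP1 KO. The 2 groups covered the same range, with a log2 difference of -0.002 ± 0.046 and an adjusted p of 0.98, and after removal of the GC and length trends the sign turned and it passed the test, at 0.108 (adjusted p = 0.027).

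To compare levels between genes, the authors' RPKM, which are per length and scaled by a size factor, were used. On that scale Mdm2 stood at 58.8 ± 0.617 (SD, n = 4) in WT, above Trp53 at 41.4 ± 2.50, while Ppm1d (4.77 ± 0.156) and Mdm4 (3.17 ± 0.0666) were far lower. The members with the highest RPKM in WT were the cyclins Ccnd1 (165.6 ± 1.77) and Ccng1 (155 ± 4.90) and the membrane-bound Akt inhibitor Phlda3 (118.5 ± 3.54). Plk2 (63.6), Btg2 (62.1) and Mdm2 followed within a narrow range, and Trp53cor1 (0.586 ± 0.0901) was the lowest of the tested members.

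**Figure D2:**
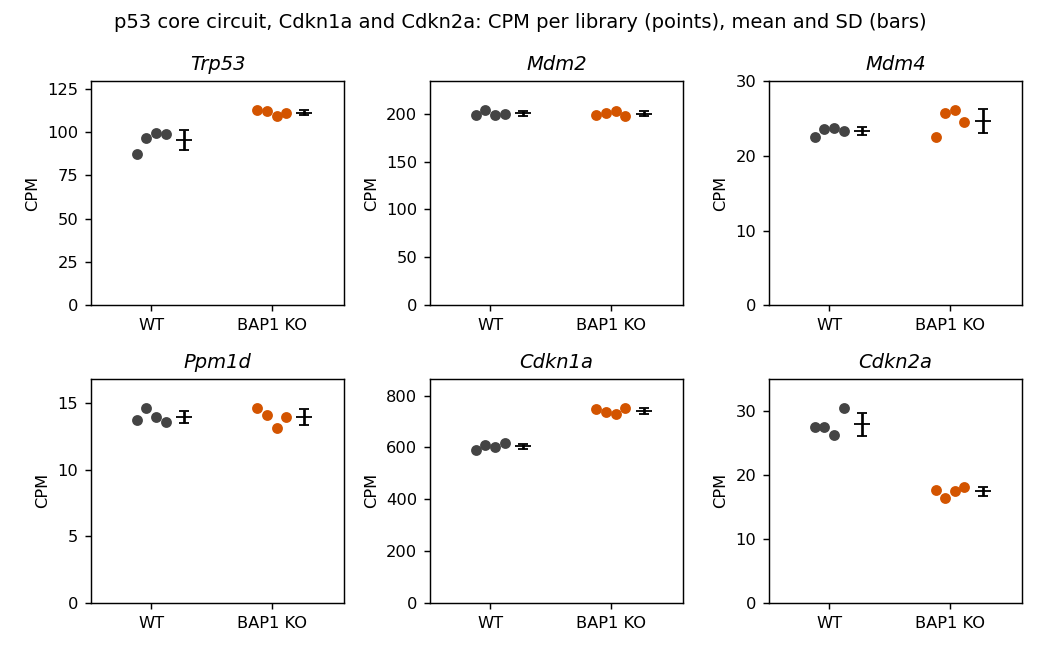
CPM in each library for Trp53, Mdm2, Mdm4, Ppm1d, Cdkn1a and Cdkn2a, with points for libraries and bars for the mean and SD of 4 libraries per genotype. The genotypes separate for Trp53, Cdkn1a and Cdkn2a and overlap for Mdm2, Mdm4 and Ppm1d.

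Of the 8 members that act in the cell cycle or as kinases, 4 were higher (Ccnd1, Ccng1, Ccnk and Gtse1), 3 were lower (Plk2, Plk3 and Btg2) and 1 did not pass, against 29.0% higher and 32.1% lower of all tested genes. Ccnd1, the cyclin that drives cells out of G1 phase (Entrez 12443, chr7:144929931-144939831), stood at 682.5, 675, 665 and 674 CPM in WT and at 799, 791, 804 and 801 CPM in BAP1 KO. Every BAP1 KO library was above every WT library by over 100 CPM, and the rise was 0.24 ± 0.02 on the log2 scale, to 118.5% of WT (adjusted p = 1.2e-12). Of its 4709 exon bases, 1100 overlap the gene LTO1 on the opposite strand, and without strand the reads of the pair cannot be told apart there. Ccng1, a direct p53 target that takes part in the control of Mdm2, stood at 574.5, 553, 549 and 532 CPM in WT and at 608, 635, 659 and 631 CPM in BAP1 KO. Its groups did not overlap, and it rose by 0.20 ± 0.02 (adjusted p = 2.1e-08). Its promoter held the full site with 1 mismatch shown above.

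Plk2 fell the most of all members. This polo-like kinase is induced by p53 and takes part in centriole duplication (Entrez 20620, chr13:110395044-110400844). It stood at 182.0, 181.0, 181.0 and 178 CPM in WT and at 135.5, 138, 137.0 and 137 CPM in BAP1 KO. Each genotype spanned under 4 CPM and the gap between them was about 40 CPM. Plk2 fell by 0.40 ± 0.02 on the log2 scale, to 75.7% of WT (adjusted p = 1.8e-16).

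Btg2, an antiproliferative gene that promotes mRNA decay (Entrez 12227, chr1:134074865-134079155), stood at 193, 194.4, 194 and 195 CPM in WT and at 161, 156, 159 and 159.5 CPM in BAP1 KO. It fell by 0.29 ± 0.02, to 81.8% of WT (adjusted p = 3.7e-13), with no overlap between the groups. The related kinase Plk3 fell too, from 35.6 ± 1.43 CPM in WT to 29.7 ± 1.99 CPM in BAP1 KO (SD, n = 4), a log2 change of -0.26. Smaller rises were measured for Ccnk, the cyclin partner of transcription kinases, at 0.15, and for Gtse1, a microtubule protein that moves p53 out of the nucleus, at 0.10. Sertad1, a coactivator in the control of E2F, did not pass (0.06, adjusted p = 0.089). Of the 8 markers of dividing cells, which include the mitotic cyclins Ccna2 (-0.36) and Ccnb1 (-0.34), 8 were lower against 32.1% of all tested genes. None was at 0, and their sum was 476.6 to 499 CPM in WT and 384 to 401 CPM in BAP1 KO. Their part in these changes was not tested.

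**Figure D3:**
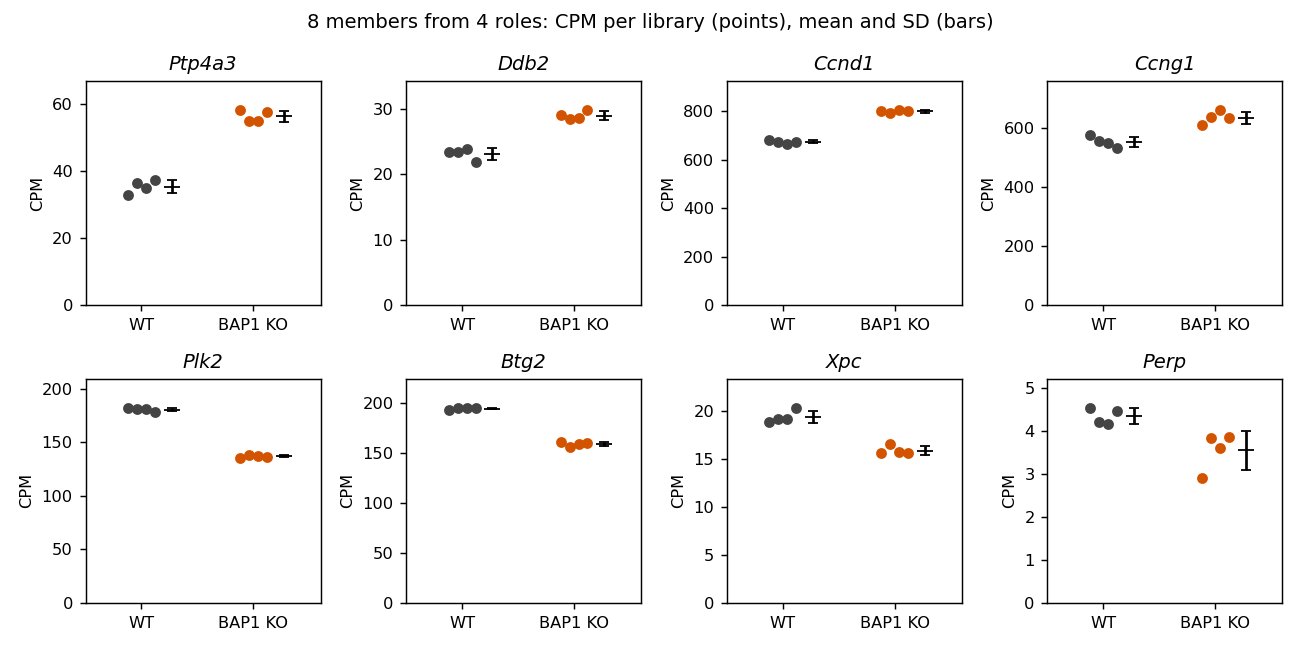
CPM in each library (points), with mean and SD (bars), for 8 members that passed the test, on axes that start at 0. Ptp4a3, Ddb2, Ccnd1 and Ccng1 are higher and Plk2, Btg2, Xpc and Perp lower in BAP1 KO, with no overlap between the genotypes.

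The 7 members that act in apoptosis or at the membrane divided into 3 higher, 1 lower and 3 not called. That is 57.1% called, near the 61.1% of all tested genes, of which 29.0% were higher and 32.1% lower. Zmat3, an RNA-binding protein that p53 induces, stood at 121.0, 123.5, 124 and 121 CPM in WT and at 136.0, 138, 137 and 133 CPM in BAP1 KO, a rise of 0.15 ± 0.02 (adjusted p = 9.5e-07). Aen, a nuclease that digests DNA in apoptosis, stood at 48.3, 46.7, 45.5 and 50.2 CPM in WT and at 56.5, 52.3, 55.7 and 58.2 CPM in BAP1 KO, a rise of 0.22 ± 0.03 (adjusted p = 1.1e-06). For both genes the lowest BAP1 KO library was above the highest WT library. Phlda3, which competes with Akt at the membrane, rose by 0.16, from 176.0 ± 5.20 CPM to 196.6 ± 5.47 CPM.

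Perp, a p53 target in desmosomes and apoptosis, was scarce, at 4.54, 4.22, 4.16 and 4.46 CPM in WT and at 2.90, 3.85, 3.61 and 3.87 CPM in BAP1 KO. BAP1 KO replicate 1, with 201 counts, was well below the other 3, and all 4 were below WT. Perp fell by 0.28 ± 0.08 (adjusted p = 0.0041), and no longer passed after removal of the GC and length trends (-0.159). Trp53inp1, a stress-induced partner of p53, ranged from 60.04 to 70.37 CPM in WT and from 59.1 to 72.3 CPM in BAP1 KO, a wide and shared range with an adjusted p of 0.84. Ei24, a membrane protein of autophagy and apoptosis (adjusted p = 0.54), and Pidd1, the scaffold of the caspase-activating PIDDosome (adjusted p = 0.61), also did not pass. After removal of the GC and length trends Trp53inp1 (0.147, robust 0.092) and Ei24 (0.125, robust 0.056) passed the test as higher.

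In DNA repair, the pair of damage sensors that open nucleotide excision repair moved in opposite directions. Ddb2, the subunit that recognises ultraviolet lesions (Entrez 107986, chr2:91211545-91237132), stood at 23.4, 23.3, 23.9 and 21.8 CPM in WT and at 29.1, 28.4, 28.6 and 29.8 CPM in BAP1 KO. It rose by 0.33 ± 0.04, to 125% of WT (adjusted p = 3.8e-09). Of its 2736 exon bases, 652 overlap Acp2 on the opposite strand. Xpc, which binds the distorted helix (Entrez 22591, chr6:91489305-91515888), stood at 18.8, 19.1, 19.2 and 20.3 CPM in WT and at 15.6, 16.5, 15.7 and 15.6 CPM in BAP1 KO. It fell by 0.29 ± 0.04, to 82.0% of WT (adjusted p = 4.4e-07), and neither gene's groups overlapped. On the RPKM scale Ddb2 stood at 10.5 and Xpc at 5.25 in WT.

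Polk, a DNA polymerase that copies past lesions, stood at 30.8, 30.7, 29.6 and 29.6 CPM in WT and at 27.5, 28.8, 28.4 and 27.4 CPM in BAP1 KO. It fell by 0.11 ± 0.03 (adjusted p = 0.0071), and after removal of the GC and length trends it no longer passed, at 0.03, or -0.032 with the robust version. Ercc5, the nuclease that cuts beside the lesion, ranged from 26.3 to 27.8 CPM in WT and from 24.1 to 27.4 CPM in BAP1 KO and missed the threshold (adjusted p = 0.068). It passed with library totals alone and without BAP1 KO replicate 2. Rrm2b, the p53-induced subunit of ribonucleotide reductase that supplies nucleotides for repair, did not pass (adjusted p = 0.42). It passed as higher after either removal of the GC and length trends.

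The 4 members of metabolism and redox control changed little. Dcxr, a reductase of sugars and carbonyls, stood at 49.9, 50.5, 50.3 and 53.8 CPM in WT and at 57.4, 55.7, 56.6 and 57.7 CPM in BAP1 KO, a rise of 0.15 ± 0.03 (adjusted p = 4.4e-05) that no longer passed after removal of the GC and length trends (0.05). Ak1, which balances adenine nucleotides, stood at 137, 138, 138 and 142.0 CPM in WT and at 133, 126, 126 and 133 CPM in BAP1 KO, a fall of 0.10 ± 0.03 (adjusted p = 5.7e-04). WT replicate 4 was the highest for both of these genes among WT libraries. Tigar, which turns sugar away from glycolysis and lowers oxidative stress, stood at 19.6, 19.1, 18.9 and 18.5 CPM in WT and at 18.2, 17.2, 17.8 and 16.6 CPM in BAP1 KO. It fell by 0.12 ± 0.04 (adjusted p = 0.0094), and no longer passed without BAP1 KO replicate 4 (adjusted p = 0.053) or after removal of the GC and length trends (-0.023). Sesn1, a stress-induced inhibitor of mTORC1 signalling, ranged from 99.5 to 104 CPM in WT and from 101.0 to 103 CPM in BAP1 KO and did not pass (adjusted p = 0.62). It passed as higher after either removal of the GC and length trends.

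Of the long non-coding RNAs, Trp53cor1 (lincRNA-p21), a p53-induced transcript beside Cdkn1a, stood at 1.75, 1.42, 2.08 and 1.77 CPM in WT and at 2.05, 2.49, 2.25 and 2.21 CPM in BAP1 KO. The groups overlapped, since WT replicate 3 was above BAP1 KO replicate 1, although the gene passed the test at 0.37 ± 0.11 (adjusted p = 0.006). It rests on 118 to 194 counts per library, and 1645 of its 3732 exon bases overlap AC167363.1 on the opposite strand. Pvt1, the transcript beside Myc that holds a p53 site, did not pass (0.10, adjusted p = 0.19).

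The member with the largest change was Ptp4a3, a phosphatase at the membrane also called PRL-3, which p53 induces (Entrez 19245, chr15:73723145-73758766). It stood at 32.8, 36.3, 35.0 and 37.4 CPM in WT and at 58.2, 54.9, 54.9 and 57.5 CPM in BAP1 KO. The lowest BAP1 KO library was over 17 CPM above the highest WT library. Ptp4a3 rose by 0.67 ± 0.04 on the log2 scale, to 159% of WT (adjusted p = 1e-16). It was the 1 member past a 1.5-fold change (adjusted p = 0.03), against 2.19% of all tested genes in that direction, and 0 members were past 1.5-fold lower, against 5.99%. No member passed lower at an unadjusted p below 0.05 either, by edgeR, DESeq2 or limma-voom. The 1.5-fold call was lost with DESeq2 (adjusted p = 0.19), with limma-voom (0.16), with library totals alone (0.07), after either removal of the GC and length trends (1.0), and when WT replicate 1 (0.2), WT replicate 3 (0.078), BAP1 KO replicate 1 (0.099) or BAP1 KO replicate 4 (0.081) was left out. Epha1, an ephrin receptor, ranged from 36.7 to 39.9 CPM in WT and from 37.5 to 39.5 CPM in BAP1 KO (adjusted p = 0.84).

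**Figure D4:**
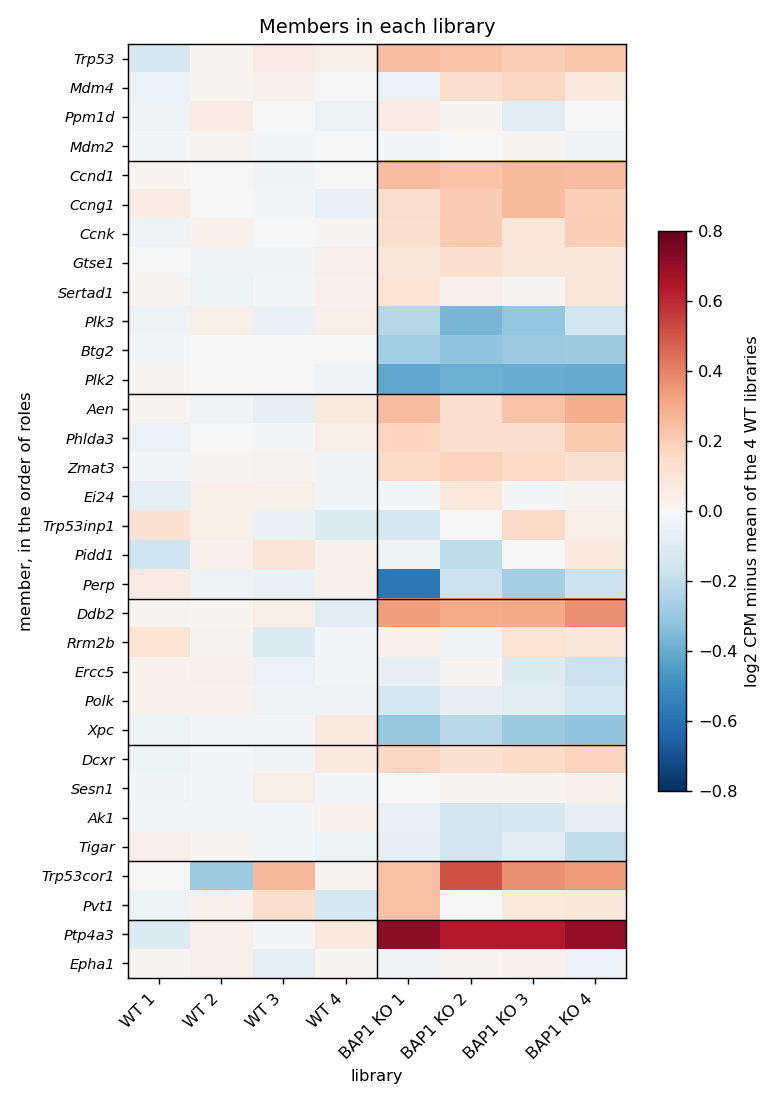
Log2 CPM of each tested member in each library minus its mean over the 4 WT libraries, in the order of roles used in the text, red for higher and blue for lower. The 4 BAP1 KO columns share the rise of Ptp4a3, Ddb2 and Ccnd1 and the fall of Plk2, Btg2 and Xpc, and Perp is lowest in BAP1 KO replicate 1.

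Replicates of the members lay close together. The coefficient of variation of CPM over the 4 libraries had a median of 3.26% in WT and 3.14% in BAP1 KO over the tested members, with a highest value of 15.3% in WT.

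The members with a p53 half-site in their promoter window did not all move one way. Among members with a window, a half-site lay in 4 of the 7 that were higher, in 1 of the 6 that were lower and in 4 of the 9 that were not called. The full site lay in 4 of the 7 higher members (Trp53, Ccng1, Aen and Gtse1), in 1 of the 6 lower (Tigar) and in 1 of the 9 not called (Sesn1). Counts this small were not tested.

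The regulators that act on p53 from upstream were read from a list of 25 genes: kinases of the damage response, ubiquitin ligases and proteases, acetyltransferases and binding partners. Of these, 6 were higher, 7 lower and 12 not called (52.0% called, against 61.1% of all tested genes), with a median log2 fold change of 0.006. Huwe1, a ubiquitin ligase that acts on p53 and Mcl1, rose from 210.0 ± 1.86 to 287 ± 9.21 CPM (0.45 ± 0.02, adjusted p = 4.7e-17). The acetyltransferases Ep300 and Crebbp, coactivators of p53, rose by 0.24 and 0.22. Cdkn2a, whose locus encodes p16 and the Mdm2 inhibitor p19Arf, stood at 27.5, 27.4, 26.2 and 30.4 CPM in WT and at 17.6, 16.4, 17.5 and 18.1 CPM in BAP1 KO. It fell by 0.68 ± 0.04, to 62.3% of WT (adjusted p = 1.7e-14). Cdkn2a was the 1 regulator of the 25 past 1.5-fold, just under the threshold (adjusted p = 0.047 by the 1.5-fold test). Of all tested genes, 5.99% were past 1.5-fold lower and 2.19% higher. Counts per gene do not separate its transcripts. Pml, the organiser of nuclear bodies where p53 is modified, fell by 0.52, and Ppp1r13b (ASPP1), which steers p53 to apoptosis genes, by 0.50. Rpl5 and Rpl11, ribosomal proteins that bind Mdm2, have many near-identical pseudogenes, and their values (17.1 and 1.12 CPM in WT) are uncertain. After removal of the GC and length trends 13 of the regulators were higher and 7 lower, against 40.9% and 26.8% of all tested genes. The robust version gave 10 higher and 10 lower, against 33.7% and 31.1%.

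A second list held 35 other p53 targets. Of these, 12 were higher, 11 lower and 12 not called (65.7% called, against 61.1% of all tested genes), with a median of -0.022. The removal of the GC and length trends gave 18 higher and 9 lower, against 40.9% and 26.8% of all tested genes. Its robust version gave 14 higher and 10 lower, against 33.7% and 31.1%. Cdkn1a, the cell cycle inhibitor p21 and the best known target, stood at 591, 609, 603 and 615.5 CPM in WT and at 747, 737, 728 and 752 CPM in BAP1 KO. It rose by 0.29 ± 0.02, to 122.5% of WT (adjusted p = 6.1e-14), with no overlap. The other named rises were Gdf15, a secreted stress factor (0.78 ± 0.04), Pltp, a phospholipid carrier (0.53), and Ephx1, an epoxide hydrolase (0.40). Of the 2562 exon bases of Pltp, 495 overlap Ctsa on the opposite strand. Larger in size were the named falls. Dgka, a diacylglycerol kinase, fell by 1.64 ± 0.07, from 14.0 ± 0.847 to 4.49 ± 0.606 CPM. Cyfip2, a subunit of the actin-regulating WAVE complex, fell by 1.08 ± 0.04, and Tgfa, a ligand of the epidermal growth factor receptor, by 0.83 ± 0.06. The macrophage markers had a higher sum in BAP1 KO with Lyz2 and a slightly lower one without it, and 5 of the 12 were higher and 6 lower. The fibroblast markers had a lower sum, as given above. The part of these cell types in this list was not tested. The other members of the p53 family were nearly silent, with 2 to 7 counts of Trp63 and 1 to 10 counts of Trp73 per library, and neither was tested.

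**Figure D5:**
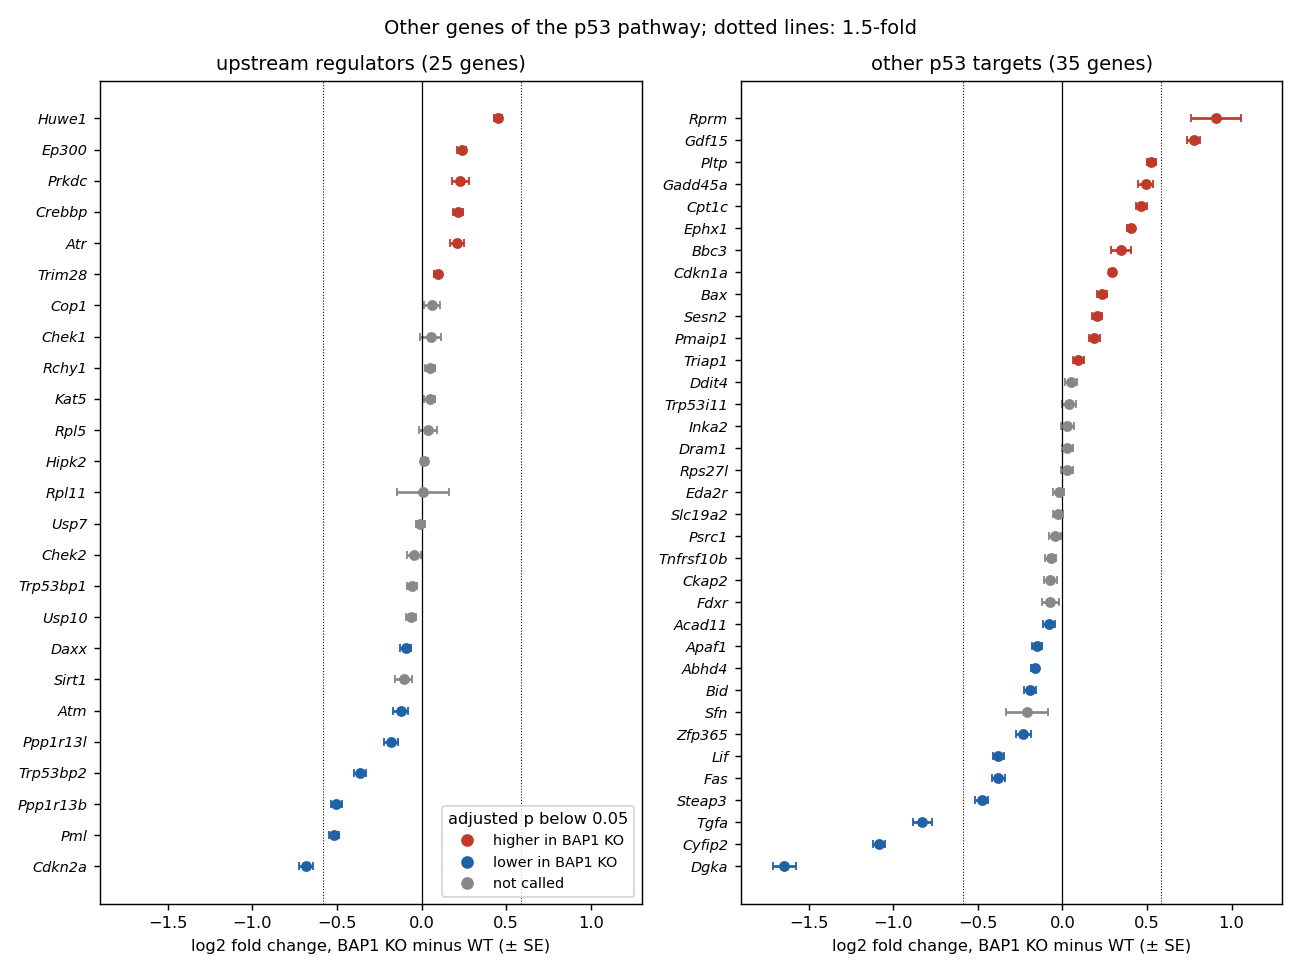
Log2 fold change (BAP1 KO minus WT) with its standard error for 25 upstream regulators (left) and 35 other p53 targets (right), with dotted lines at 1.5-fold. Both lists spread to either side of 0, from -0.68 to 0.45 on the left and from -1.64 to 0.91 on the right.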

How the data were processed

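The deposited counts are whole numbers of reads per Entrez gene in 8 libraries, per the file headers. Per the submitters' processing notes, GSNAP and GRCm38 were used; versions and strand handling were not given in the sources used here. RPKM, per the file headers, carry the authors' size factor and served only to compare levels between genes. Of 36528 identifiers, 31049 took a symbol from RefSeq on GRCm38.p6. The library kit does not mark strand; exon overlaps came from GENCODE vM21.

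The test was that of edgeR 4.0.16 in R 4.3.3, with filterByExpr by genotype, TMM factors, robust quasi-likelihood F test, Benjamini-Hochberg adjustment over 16929 genes at 0.05, and glmTreat for the 1.5-fold test. The SE is the fold change over the square root of F. Within a genotype, libraries differed by 2.39 to 5.33 times counting noise, so none was counted as a duplicate. No batch or pairing is labelled. Alternatives were RLE factors, library totals alone, no filter, a stricter one (CPM above 1 in at least 4 libraries), the tools DESeq2 1.42.0 and limma-voom 3.58.1, each library left out, and, added after seeing the data, 2 removals of GC and length trends. Members and lists were chosen with earlier results of these data known. Bap1, the core circuit, and up to 2 members per role and direction with the smallest adjusted p are given by library; up to 3 genes per direction are named from each other list, with Cdkn1a and Cdkn2a.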

Additional observations from a re-analysis of the deposited data

Results flagged for a closer look

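Over 46 genes, 92 groups of 4 libraries were searched for a library that stands apart from the other 3, by the gap to its nearest neighbour as a share of the group's range (Dixon's critical value at the 5% level). This found 5 libraries, where the level chosen would by itself give about 1 in 20 groups. For Gtse1, BAP1 KO replicate 2 stood at 49.27 CPM, above the other 3 at 47.93 to 48.0 CPM. For Xpc, BAP1 KO replicate 2 stood at 16.53 CPM against 15.55 to 15.69 CPM, still below every WT library. For Sesn1, WT replicate 3 stood at 104.4 CPM against 99.53 to 100.2 CPM. WT replicate 4 stood apart for Dcxr, at 53.82 CPM against 49.94 to 50.47 CPM, and for Pml, at 70.6 CPM against 66.24 to 66.51 CPM. Leaving out any 1 library moved no called member's fold change by over 1.5 times.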

How the results depend on the processing

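Over 16 alternatives, 14 of them planned, 16 of the 20 called members stayed called in the same direction in all, and 4 of the 12 members not called stayed so in all. Trp53cor1 and Pvt1, counted among these, have no GC content, so both GC removals left them untouched. Removal of the GC and length trends gave 18 members higher and 5 lower, 13 upstream regulators higher and 7 lower, and a median member change of 0.109. The robust version gave 18 and 6, 10 and 10, and 0.07. These removals shifted the median of all genes by 0.06 and 0.003; the cause of the change in calls was not tested. Under these removals the sign turned for Mdm2 (0.145, robust 0.069), Ppm1d (0.108, robust 0.048), Polk (0.03), Ercc5 (0.053) and Epha1 (0.04). Over all alternatives it turned for 9 members, of which Polk was the 1 called. The count of members past 1.5-fold higher was 0 with library totals alone, DESeq2, limma-voom and both removals, and 0 to 1 with 1 library left out. The median member change was 0.028 to 0.064 with 1 library left out. No paired analysis was possible because the labels give no replicate numbers. Of the tested genes, 85.1% had a GC content and length.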

Other observations

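Groups within the 2 pathway lists were picked out after their values were seen, and are given as values. The ASPP family, which binds p53 and shifts its choice of targets, was lower throughout: Ppp1r13b (ASPP1) fell by 0.50, Trp53bp2 (ASPP2) by 0.36 and Ppp1r13l (iASPP, the inhibitory member) by 0.18 on the log2 scale. Their mean levels went from 36.2 to 25.5, from 35.3 to 27.4 and from 21.3 to 18.8 CPM, with no overlap of the genotypes for any of the 3. Of all tested genes, 32.1% were lower, and 53.8% had no overlap in either direction. Among the 5 damage kinases of the list, Atr rose by 0.21 and Prkdc by 0.23, while Atm fell by 0.12 with overlapping groups (21.3 to 24.2 CPM in WT, 19.3 to 22.4 CPM in BAP1 KO). Chek1 (0.05, adjusted p = 0.48) and Chek2 (-0.04, adjusted p = 0.37) did not pass.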
